A study of Mus musculus with 6 samples.

Results

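The genes described here encode the proteins of the cytosolic ribosome in mouse CD4+ T cells. They were taken by symbol: every gene whose name begins with Rpl or Rps and a digit, every Rplp gene with a digit, and Rpsa, without pseudogene names carrying -ps, the Rps6k kinases and Rps19bp1. The rule found 89 of the 38216 symbols, of which 37 are named for the small subunit, 49 for the large subunit and 3 for its P stalk. The cells were splenic CD4+ T cells of C57BL/6 mice on postnatal day 28. The animals carried an Il21 reporter allele that marks cells with the fluorescent protein VFP, and this allele was present in every group. Fluorescence sorting gave 3 pools, each sequenced as 2 libraries. N cells had neither VFP nor ICOS, a costimulatory receptor raised on activated T cells. ACT cells had ICOS without VFP, and ACT_IL21 cells had both. The labels name no further difference between the pools, and do not say whether the 2 libraries sequenced from each stem from different mice. All p-values below therefore measure the spread between libraries, which may be technical.

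A ribosome joins a small subunit, which reads the messenger RNA, to a large subunit, which forms the peptide bond. Most ribosomal proteins are needed in equal amounts, and most of their messenger RNAs carry a pyrimidine-rich 5′ end, the TOP motif, through which mTORC1 controls their translation. Resting lymphocytes hold large stocks of these messenger RNAs, and activated T cells build new ribosomes before they divide. Their levels are values per transcript length, in TPM, the share of a library's transcripts scaled to a fixed total, so different genes can be set side by side. In bulk samples such as these, fewer cells of a type and less RNA per cell cannot be told apart.

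The label of the cells was checked against marker genes. Summed over 10 T cell markers, the level ranged from 4106 to 5708 TPM across the 6 libraries, and Cd3e, a chain of the T cell receptor complex, was the most abundant in the list. The B cell list summed to 6.44 and 4.76 TPM in N, 21.2 and 21.7 TPM in ACT and 8.45 and 10.03 TPM in ACT_IL21. Natural killer and NKT cell markers, led by Nkg7, a cytotoxic granule protein, summed to 59.7 and 70.3 TPM in N, 1123 and 1043 TPM in ACT, and 215 and 175 TPM in ACT_IL21. Naive T cell markers, led by Satb1, a chromatin organiser, summed to 4922 to 5181 TPM in N, 2190 to 2352 TPM in ACT and 2549 to 2656 TPM in ACT_IL21. Of 10 markers of proliferating cells, 3 were higher in ACT than in N and 6 in ACT_IL21 than in N. Over all tested genes 4.15% and 3.82% were higher. The medians of the proliferation markers were 1.39 and 2.03 on the log2 scale. The 7 erythroid markers had a median of 1.24 in ACT_IL21 against N, all above 0 and none past the threshold. Their sum was 225 and 55 TPM in N, 223 and 79.8 TPM in ACT and 436 and 151 TPM in ACT_IL21, higher in replicate 1 of each pool. These lists moved with the pools compared below, and their part in the ribosomal results was not tested.

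The sequence at the gene start is shown first, since the TOP motif lies there. RefSeq promoter sequences (build GRCm38.p6) matched 64 of the 89 symbols. A cytosine followed by at least 6 pyrimidines on the gene's own strand, within 15 bases of an annotated start, was found in 32 of these 64 genes (50%), against 17.6% of the 8646 tested genes with an entry. The windows of 30 bases below show 4 genes with such a tract, in capitals, and then 4 of the genes that were lower in ACT_IL21 than in N and have none. They lie at chr4:86857353-86857382 (Rps6, minus strand), chr14:24490663-24490692 (Rps24, plus), chr9:66946071-66946100 (Rps27l, plus), chr3:28805493-28805522 (Rpl22l1, plus), chrX:102189377-102189406 (Rps4x, minus), chrX:134585639-134585668 (Rpl36a, plus), chr11:97782425-97782454 (Rpl23, minus) and chr7:99483695-99483724 (Rps3, minus). Each runs 5′ to 3′ on the gene's strand, and the annotated start is the first base after its middle. The tract of Rps27l lies wholly before that start. Rps24 and Rps27l each have a further annotated start whose window holds no tract. Of the 4 genes shown with a tract, only Rps6 was past the threshold in ACT_IL21 against N.
Rps6: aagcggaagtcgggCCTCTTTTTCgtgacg
Rps24: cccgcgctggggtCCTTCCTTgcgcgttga
Rps27l: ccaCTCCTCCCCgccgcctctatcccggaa
Rpl22l1: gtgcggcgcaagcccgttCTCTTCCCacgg
Rps4x: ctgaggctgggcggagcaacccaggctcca
Rpl36a: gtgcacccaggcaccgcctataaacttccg
Rpl23: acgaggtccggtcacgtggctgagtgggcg
Rps3: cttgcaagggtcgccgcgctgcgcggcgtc

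The tract is a description of these letters and not a mapped start of transcription. Over the 300 bases from 250 before to 50 after the start, on both strands, CCGGAAGT was present in 18.8% of the 64 genes and in 9.74% of the tested genes with an entry. AAGATGGC stood in 9.38% against 5.7%, TATAAA in 10.9% against 8.55%, and CACGTG in 9.38% against 11.9%. Among the 60 genes with an entry that were also tested, the median log2 fold change of ACT_IL21 against N was -0.40 for the 30 with a tract and -0.46 for the 30 without. These medians differed little. In that comparison 1 of the 30 genes with a tract and 4 of the 30 without were past the threshold. Genes without a tract in this window may still carry the TOP motif, since annotated starts were used. The part of the motif in the change was therefore not tested.

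Ribosomal protein messenger RNA made up a large share of every library. The 89 genes summed to 130246 and 112380 TPM in N, which is 13.02% and 11.24% of the library. In ACT the sum was 107192 and 91977 TPM (10.72% and 9.2%). ACT_IL21 had 84805 and 86912 TPM (8.48% and 8.69%). All libraries of N lay above those of ACT, and those of ACT above those of ACT_IL21. The mean sum was 0.82 times that of N in ACT and 0.71 times in ACT_IL21. The small subunit genes had 0.68 times the N level in ACT_IL21 and the large subunit genes without the stalk 0.73 times. The P stalk genes had 0.74 times the N level, but their libraries overlapped. They summed to 6800 and 4060 TPM in N and to 3754 and 4237 TPM in ACT_IL21. These are descriptions, since a score over the genes is given no p.

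**Figure D1:**
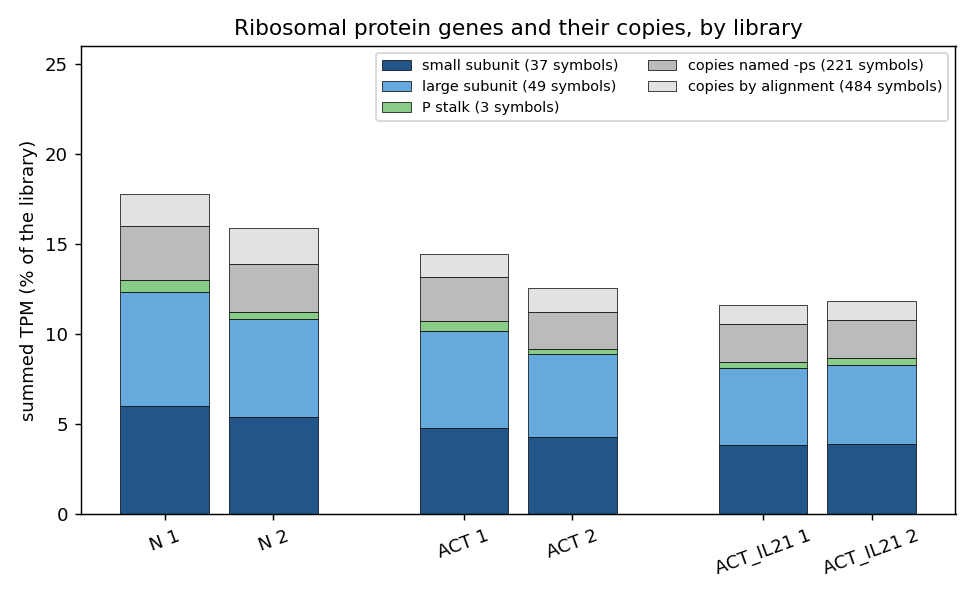
Summed TPM as a percent of each library, 1 bar per library, split into small subunit, large subunit and P stalk genes and their copies elsewhere in the genome. Ribosomal protein genes without copies take 13.02% and 11.24% in N, 10.72% and 9.2% in ACT, and 8.48% and 8.69% in ACT_IL21.

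The genes differed widely in level. Averaged over the libraries, 49 had at least 1000 TPM, 28 had 100 to 1000 TPM, 6 had 1 to 100 TPM and 6 had under 1 TPM. The most abundant was Rps24, a small subunit protein needed for maturation of its ribosomal RNA, at 5065 TPM. Rps4x followed at 4915 TPM, Rps3a1 at 4534 TPM, Rpl30 at 2898 TPM and Rpl4 at 2882 TPM. Rps24 had 7070 and 5999 TPM in N, 4735 and 4635 TPM in ACT and 3864 and 4090 TPM in ACT_IL21, with no overlap among the pools. Its log2 fold change of ACT_IL21 against N was -0.71 (SE 0.17) and missed the threshold (limma adjusted p = 0.0546).

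At the other end, Rpl3l and Rps12 were listed at 0 TPM in all 6 libraries. Rpl10l, a paralogue known from the testis, reached at most 1.27 TPM, Rpl39l at most 1 TPM, Rps3a3 at most 1.72 TPM and Rps4y2 at most 2.39 TPM. Of these 6 genes only Rps4y2 entered the test, and it passed in no comparison. In all, 84 of the 89 genes had at least 1 TPM in at least 2 libraries and were tested. In the GENCODE M21 annotation 84 of the 89 symbols are protein-coding genes, Rps12l1, Rps3a2 and Rps3a3 are processed pseudogenes, and Rps12l2 and Rps4y2 were not matched.

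Part of the ribosomal protein signal sat on copies of these genes. Ribosomal protein genes have many processed copies, and the authors' estimation divides reads that fit several of them. Pseudogene names with -ps (221 symbols) and entries assigned by alignment (484 symbols) added a mean of 2.81% and 1.88% of the library in N, 2.25% and 1.3% in ACT, and 2.07% and 1.08% in ACT_IL21. For 14 of the 89 genes the copies together had more TPM than the gene itself. Rpl5, which carries 5S ribosomal RNA into the large subunit, had a mean of 100.3 TPM, while its copy Gm15500 had 6868 TPM. Rps6, the small subunit protein phosphorylated by S6 kinases below mTORC1, had 348 TPM and its copy Rps6-ps4 had 3929 TPM. Levels of single genes with such copies are uncertain.

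Rps12, a small subunit protein, is the extreme case. Its own entry was at 0 TPM, its copy Rps12-ps3 had a mean of 791 TPM and Rps12l1 had 139 TPM. The 399 coding bases of Rps12, stop codon included, were identical in Rps12-ps3 and Rps12l1, with 0 differences. Coding positions 1 to 60 of Rps12 (gene at chr10:23785183-23787275, minus strand, GRCm38), taken from the GENCODE M21 transcript, are shown with those of Rps12l1 (chr7:56014016-56014414, plus strand), and no letter differs.
Rps12: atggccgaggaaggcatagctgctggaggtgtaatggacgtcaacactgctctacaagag
Rps12l1: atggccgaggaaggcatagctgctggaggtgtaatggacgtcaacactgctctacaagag

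Rps12l1 lay above N in ACT and below N in ACT_IL21. It had 123.3 and 122.2 TPM in N, 180.6 and 235.03 TPM in ACT, and 86.9 and 88.1 TPM in ACT_IL21. The ACT libraries were the highest and the ACT_IL21 libraries the lowest, with no overlap. Its log2 fold change was 0.74 (SE 0.17) for ACT against N (limma adjusted p = 0.0447) and -1.23 (SE 0.17) for ACT_IL21 against ACT (adjusted p = 0.0134). Against N, ACT_IL21 differed by -0.48 (SE 0.17), which missed the threshold (adjusted p = 0.169). The rise in ACT was past the threshold without ACT replicate 1 only (adjusted p = 0.0261), and without any other single library its adjusted p was 0.0898 to 0.237. The fall in ACT_IL21 against ACT was lost without either ACT_IL21 library (adjusted p = 0.108 and 0.114). All entries of the Rps12 family together summed to 903 and 987 TPM in N, 1101 and 1095 TPM in ACT and 801 and 760 TPM in ACT_IL21. With the -ps copies summed into Rps12, but without Rps12l1, the log2 fold change was 0.11 for ACT against N, -0.25 for ACT_IL21 against N and -0.36 for ACT_IL21 against ACT, none past the threshold (adjusted p = 0.729, 0.37 and 0.251).

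The comparison of ACT_IL21 with N sets cells with ICOS and VFP against cells with neither, so what goes with each cannot be told apart. In this comparison 9 ribosomal protein genes fell and none rose. The 9 of 84 tested genes (10.7%) stood beside 1.26% of all 13311 tested genes that were lower by the same limma test, and the 0 higher genes beside 3.82% of all genes. With no adjustment, 44 of the 84 genes were lower at a p under 0.05, beside 5.75% of all genes, and 1 was higher. The median log2 fold change was -0.45, against 0.10 over all genes, and 78 of 84 genes were below 0, against 41.6% of all genes. In 63 of 84 genes (75%) both ACT_IL21 libraries lay below both N libraries, which held for 19.9% of all genes. The reverse held for 2 genes, Rpl29 and Rps27l, and for 31.5% of all genes. The 9 calls rest on the spread of few libraries, and as a set they did not hold when 1 library of N or of ACT_IL21 was left out. The median log2 fold change stayed negative with any 1 library left out (-0.58 to -0.35). No call was left without the filter on low values or without the intensity trend. Scaling every library to the same median moved the median of all genes from 0.10 to -0.07. With that scaling 22 of the ribosomal protein genes were lower, beside 217 of all 13311 genes.

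**Figure D2:**
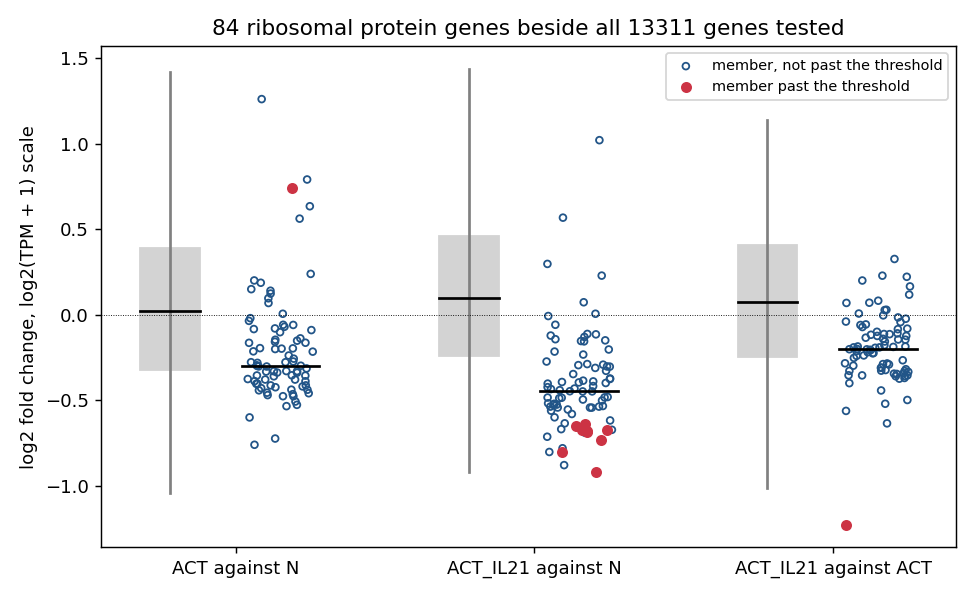
Log2 fold changes on the log2(TPM + 1) scale in the 3 comparisons. Circles are the 84 tested ribosomal protein genes, filled red where past the limma threshold, with their median as a black line; the grey box, line and bar give the middle quartiles, the 5th to 95th percentile range and the median of all 13311 tested genes. The ribosomal medians lie at -0.30, -0.45 and -0.20, those of all genes at 0.02, 0.10 and 0.08.

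Genes of the small subunit were among the 9. Rps4x, an X-linked core protein of the small subunit (chrX:102184941-102189394), had 6215 and 6601 TPM in N, 4674 and 4653 TPM in ACT and 3750 and 3594 TPM in ACT_IL21. The pools followed each other downwards with no overlap, and the log2 fold change of ACT_IL21 against N was -0.80 (SE 0.16, adjusted p = 0.0268). Rps3, which lies where messenger RNA enters the ribosome (chr7:99477896-99483738), had 1199 and 1317 TPM in N, 993 and 1053 TPM in ACT and 791 and 824 TPM in ACT_IL21. Every N library was above every ACT library, and the log2 fold change of ACT_IL21 against N was -0.64 (SE 0.13, adjusted p = 0.0355).

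Rps6 (chr4:86854660-86857412) had 477 and 429 TPM in N, 287 and 352 TPM in ACT and 279 and 265 TPM in ACT_IL21. Again no libraries of different pools overlapped, although ACT and ACT_IL21 were close, and the log2 fold change against N was -0.73 (SE 0.15, adjusted p = 0.0343). With its copies summed into it, Rps6 had a log2 fold change of -0.64 (SE 0.16) and was no longer past the threshold (adjusted p = 0.0688).

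Genes of the large subunit were also among the 9. Rpl36a, a protein near the exit site for transfer RNA (chrX:134585654-134588062), had 1418 and 1734 TPM in N, 1081 and 1266 TPM in ACT and 869.5 and 789 TPM in ACT_IL21. The pools did not overlap, and the log2 fold change of -0.92 (SE 0.16, adjusted p = 0.0181) was the lowest of the 84 genes in this comparison. Rpl23, at the face joined to the small subunit (chr11:97777527-97782437), had 1566 and 1737 TPM in N, 1251 and 1332 TPM in ACT and 1036 and 1021 TPM in ACT_IL21. Its log2 fold change of ACT_IL21 against N was -0.68 (SE 0.14, adjusted p = 0.0301).

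Rpl17, which lines the tunnel of the growing peptide, had 2781 and 2779 TPM in N, 2180 and 2155 TPM in ACT and 1781 and 1765 TPM in ACT_IL21. Its libraries within a pool were nearly equal, and the log2 fold change of ACT_IL21 against N was -0.65 (SE 0.14, adjusted p = 0.0363). Rpl3, close to the centre of peptide bond formation (chr15:80077791-80091868), had 2022 and 1842 TPM in N, 1712 and 1492 TPM in ACT and 1229 and 1194 TPM in ACT_IL21, a log2 fold change of -0.67 against N (SE 0.14, adjusted p = 0.0397). Rpl7 (chr1:16101295-16104662) had 1265 and 1022 TPM in N, 786 and 793 TPM in ACT and 725 and 703 TPM in ACT_IL21. Both activated pools lay near each other and below N, and the log2 fold change of ACT_IL21 against N was -0.67 (SE 0.15, adjusted p = 0.0433).

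**Figure D3:**
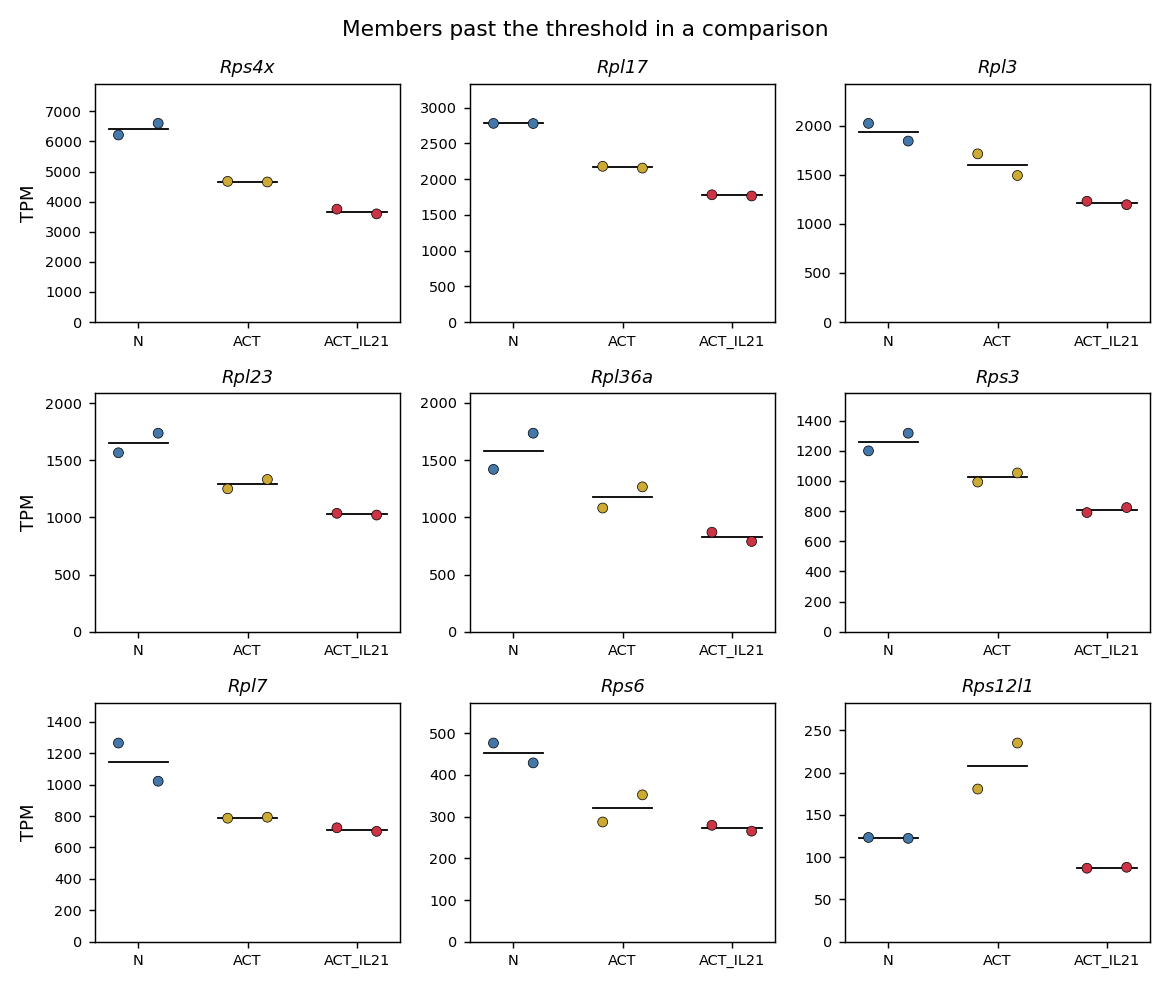
TPM by library (points) and pool mean (lines) for 9 ribosomal protein genes past the threshold in a comparison, each panel on its own linear axis from 0. The genes other than Rps12l1 fall from N through ACT to ACT_IL21, and Rps12l1 is highest in ACT.

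Genes of both subunits were lower. The median log2 fold change of ACT_IL21 against N was -0.49 over 35 small subunit genes and -0.42 over 46 large subunit genes, with 31 and 44 of them below 0. When copies were summed into their genes, an alternative chosen after seeing the data, 12 genes were lower, beside 174 of all 13087 genes tested. Rpl12, Rpl5, Rps24 and Rps7 joined and Rps6 left. Rpl5 with its copies then had a log2 fold change of -1.01 (SE 0.21, limma adjusted p = 0.0344). Its copy Gm15500 had 8528 and 11136 TPM in N, 5084 and 6833 TPM in ACT and 4939 and 4688 TPM in ACT_IL21. Among the 225 copies tested as entries of their own, 3 were lower in ACT_IL21 than in N, beside 1.26% of all genes. A further 2 were higher, beside 3.82% of all genes, and the median of the copies was -0.24.

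ACT cells carried ICOS but no VFP, and their comparison with N asks what goes with activation without Il21. No ribosomal protein gene fell there and Rps12l1 rose. The count was 1 of 84 higher, beside 4.15% of all genes, and 0 of 84 lower, beside 1.43% of all genes. With no adjustment 18 of the 84 genes were lower at a p under 0.05, beside 6.99% of all genes, and 2 were higher. The median log2 fold change was -0.30, against 0.02 over all genes, and 70 of 84 were below 0, against 47.9% of all genes. The median rested partly on single libraries: it was -0.12 without N replicate 1 (61 of 83 below 0) and -0.12 without ACT replicate 2 (53 of 83 below 0). Both ACT libraries lay below both N libraries in 35 of 84 genes, beside 21.9% of all genes, and above them in 5, beside 25.2%. Those 5 were Rpl36al, Rpl38, Rpl7l1, Rps12l1 and Rps27l. The lists against N share the same N libraries, so the values of both comparisons are given side by side and no agreement is read from them.

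The lowest folds of ACT against N were in genes whose libraries spread widely. Rps19, which is mutated in Diamond-Blackfan anaemia, had 1485 and 1002 TPM in N, 926 and 561 TPM in ACT and 698 and 701 TPM in ACT_IL21. Its log2 fold change was -0.76 (SE 0.26) for ACT and -0.80 (SE 0.26) for ACT_IL21 against N, neither past the threshold (adjusted p = 0.165 and 0.149). Rpl10, an X-linked protein needed for subunit joining, had 1794 and 1059 TPM in N, 899.6 and 775 TPM in ACT and 692 and 812 TPM in ACT_IL21. Every N library was above all others, and the log2 fold change was -0.72 for ACT (adjusted p = 0.153) and -0.88 for ACT_IL21 (adjusted p = 0.0936), each with an SE of 0.24. With its copies summed in, these were -0.40 and -0.46. Without N replicate 2, Rpl10 was lower in both comparisons, by -1.10 (adjusted p = 0.0376) and -1.26 (adjusted p = 0.0294). Without ACT replicate 1, Rps19 was lower in ACT, by -1.12 (adjusted p = 0.0457).

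Between the ICOS-positive pools, which ask what goes with Il21 transcription among activated cells, Rps12l1 fell and no other ribosomal protein gene passed the test. The 1 lower gene of 84 stood beside 1.15% of all genes, and the 0 higher genes beside 0.796%. The unadjusted p was under 0.05 for 11 lower genes of the 84, beside 6.37% of all genes, and for 0 higher genes. The median log2 fold change was -0.20, against 0.08 over all genes, and 72 of 84 were below 0, against 43.4% of all genes. It was -0.09 without ACT replicate 1 (56 of 84 below 0) and -0.33 without ACT replicate 2 (80 of 83 below 0). ACT_IL21 lay below ACT without overlap in 40 of 84 genes, beside 17.3% of all genes, and above it in 1, Rpl12, beside 24.5%. The copies of Rpl12 hold most of its signal, and with them summed in ACT had 2325 and 2236 TPM and ACT_IL21 2084 and 2068 TPM, so that the direction turned. Rpl27 had 425 and 614 TPM in N, 561 and 603 TPM in ACT and 407 and 344 TPM in ACT_IL21, and its log2 fold change between the ICOS-positive pools was -0.63 (SE 0.19, adjusted p = 0.176), or -0.40 with its copies summed in. Among genes of at least 5 TPM the highest folds were in Rpl22l1 (0.33, SE 0.41), Rpl10a (0.23, SE 0.32) and Rps16 (0.22, SE 0.70), all within about 1 SE of 0. With copies summed in, those of Rpl10a and Rps16 were 0.00 and 0.03.

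Across all 3 pools, a moderated F test found 3 of 84 genes, Rps12l1, Rpl36a and Rps4x, beside 7.03% of all genes. The share is below that of all genes. A full order of N above ACT above ACT_IL21 with no overlapping library held for 23 of 84 genes (27.4%) and for 1.89% of all genes. Among the 23 were all 9 genes called lower in ACT_IL21, and also Rps24, Rps3a1, Rpl30, Rpl39 and Rplp0. The order was thus frequent among ribosomal protein genes while few of them passed the test.

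The P stalk binds the elongation factors that drive each step of translation. Rplp0, which anchors it, had 1560 and 1285 TPM in N, 1196 and 914 TPM in ACT and 860 and 897 TPM in ACT_IL21, with a log2 fold change of ACT_IL21 against N of -0.69 (SE 0.18) that missed the threshold (adjusted p = 0.0731). Rplp1, one of the proteins that Rplp0 carries, had 2451 and 1238 TPM in N, 1788 and 903 TPM in ACT and 1274 and 1422 TPM in ACT_IL21. Rplp2, its partner, had 2788 and 1537 TPM in N, 2346 and 1202 TPM in ACT and 1620 and 1918 TPM in ACT_IL21. For Rplp1 and Rplp2 the gap between replicates of N or ACT was wider than the gap between the pool means, and neither passed in any comparison.

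Rpsa, a small subunit protein also known as a laminin receptor, had 1076 and 645 TPM in N, 828 and 473 TPM in ACT and 680 and 679 TPM in ACT_IL21. Rps27a, made as a fusion with ubiquitin, had 772 and 391 TPM in N, 662 and 289 TPM in ACT and 391 and 419 TPM in ACT_IL21. The ACT_IL21 libraries lay inside the range of the ACT libraries for both genes. Their log2 fold changes of ACT_IL21 against N were -0.29 (SE 0.30) and -0.44 (SE 0.41), with adjusted p = 0.68 and 0.643. With copies summed in, Rps27a had 863.2 and 769.3 TPM in N, 768.8 and 659.8 TPM in ACT and 577.8 and 601.4 TPM in ACT_IL21. The pools then did not overlap, and the log2 fold change was -0.47 (SE 0.14), still not past the threshold (limma adjusted p = 0.117).

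Several ribosomal proteins have a second gene, and these paralogues did not all follow the main gene. Rps27l, a paralogue of Rps27 known as a target of p53, had 37.9 and 37.3 TPM in N, 76.2 and 56.7 TPM in ACT and 52.7 and 59.9 TPM in ACT_IL21. Both ICOS-positive pools were above N in every library, but the log2 fold changes of 0.79 (SE 0.20, adjusted p = 0.0695) and 0.57 (SE 0.20, adjusted p = 0.185) missed the threshold. Without ACT replicate 2 the change of ACT passed (adjusted p = 0.041). Rps27 itself had 17.2 and 8.5 TPM in N, 13.8 and 27.1 TPM in ACT and 16.8 and 9.73 TPM in ACT_IL21, with wide overlap. Its mean of 15.5 TPM is low beside the 49 genes of at least 1000 TPM, and its copies had a mean of only 6.48 TPM. Whether its reads were assigned elsewhere was not tested, so its level relative to Rps27l is uncertain.

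Rpl36al had 1289 and 1514 TPM in N, 1640 and 1659 TPM in ACT and 1270 and 1312 TPM in ACT_IL21. Its level was thus highest in ACT, where that of Rpl36a was between the other pools, and its log2 fold change against N was 0.24 (SE 0.14) in ACT and -0.11 (SE 0.14) in ACT_IL21 (adjusted p = 0.439 and 0.745). Rpl7l1 had 13.3 and 10.95 TPM in N, 17.05 and 19.6 TPM in ACT and 16.3 and 12.6 TPM in ACT_IL21, with a log2 fold change of 0.56 (SE 0.29) in ACT against N (adjusted p = 0.358). The difference between a gene and its paralogue was not tested.

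Rpl22, which mice need for the development of alpha-beta T cells, had 913 and 663 TPM in N, 875 and 552 TPM in ACT and 714 and 684 TPM in ACT_IL21. Its paralogue Rpl22l1 had 417 and 218 TPM in N, 304 and 130.1 TPM in ACT and 237 and 262 TPM in ACT_IL21. For both, replicates of N and of ACT differed more than the pools did, and no comparison passed. Rpl39, the partner of Rpl39l, had 1945 and 1810 TPM in N, 1710 and 1570 TPM in ACT and 1436 and 1404 TPM in ACT_IL21, with no overlap and a log2 fold change of -0.40 (SE 0.14) for ACT_IL21 against N (adjusted p = 0.167).

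**Figure D4:**
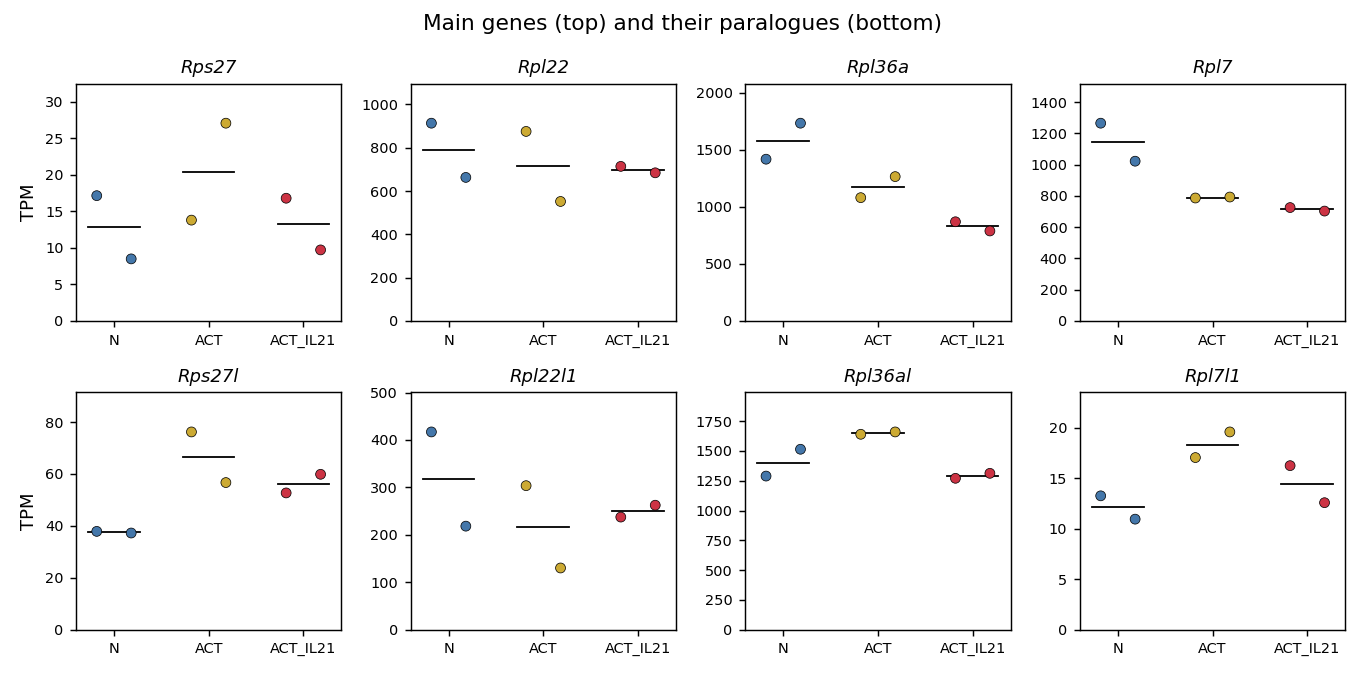
TPM by library (points) and pool mean (lines) for 4 main genes, top, and their paralogues, bottom, on linear axes from 0. Rps27l is above its N libraries in both other pools, and Rpl36al is highest in ACT at 1640 and 1659 TPM while Rpl36a falls from N to ACT_IL21.

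Scaling each library to its own ribosomal sum asks which genes moved apart from the rest of the group. On that scale Rps27l was higher than in N in ACT, by 1.07 (SE 0.21, limma adjusted p = 0.021), and in ACT_IL21, by 1.05 (SE 0.21, adjusted p = 0.0158). Rps12l1 was higher in ACT, by 1.03 (SE 0.23, adjusted p = 0.0357). Rpl29 was higher in ACT_IL21, by 0.79 (SE 0.20, adjusted p = 0.0331). It had 1361 and 975 TPM in N, 1515 and 1002 TPM in ACT and 1423 and 1410 TPM in ACT_IL21, so it was level or higher where the sum fell. No gene of the group was lower than the sum past the threshold. This scale raises the median of all genes to 0.55 in ACT_IL21 against N, so a rise on it is relative to the ribosomal genes alone.

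Position on the X chromosome was noticed after the values were seen. The genes with the lowest log2 fold changes of ACT_IL21 against N, among those of at least 5 TPM, were Rpl36a, Rpl10 and Rps4x, and all are X-linked. Rpl39 is the remaining X-linked gene of the group that was tested. The median over these 4 genes was -0.84, against -0.45 over the 78 tested genes elsewhere and 0.05 over 429 other tested genes on X. For ACT against N the same medians were -0.44, -0.30 and 0.01. Copies of Rpl10 hold more TPM than the gene, and with copies summed in, the log2 fold change of Rpl10 in ACT_IL21 against N was -0.46. The lowest was then -1.01 in Rpl5, and the median of the 4 X-linked genes was -0.63, against -0.47 over 79 elsewhere. These medians describe 4 genes and were not tested.

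Level and fold went together to some degree. Across 82 genes of at least 5 TPM, the mean log2 level correlated with the log2 fold change at r = -0.44 for ACT against N and r = -0.41 for ACT_IL21 against N, and at r = 0.09 between the ICOS-positive pools. The points share the same libraries and are not independent, so no p is given. The genes are short, with a median transcript of 882 bases against 2677 bases over all tested genes, and their median GC content was 50.9% against 49.6%.

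Replicates of N and of ACT differed in these genes more than those of ACT_IL21. In N, replicate 1 was above replicate 2 in 67 of 84 genes, by a median of 0.22 on the log2 scale. ACT showed 62 of 84 with a median of 0.20, and ACT_IL21 30 of 84 with a median of -0.05. Over all tested genes replicate 1 was higher in 54.2%, 51.5% and 46.9%. Across 5474 genes of at least 20 TPM, this difference correlated with GC content at r = 0.49 in N, 0.46 in ACT and -0.13 in ACT_IL21, and across 82 ribosomal protein genes at r = 0.22, 0.24 and -0.13. GC content thus moved with the replicate difference over all genes. Across the same 5474 genes, it correlated with the log2 fold change at r = 0.05 (ACT against N), 0.16 (ACT_IL21 against N) and 0.13 (ACT_IL21 against ACT). Across the 82 ribosomal protein genes these were 0.08, 0.18 and 0.12. The part of GC content in the pool comparisons was not tested. Among genes of at least 5 TPM, taken without their copies, the widest replicate gaps were in Rps16, Rps27a and Rpl22l1. Below that level Rps12l2 had 0 and 4.16 TPM in N. Rps16, a small subunit protein, had 368 and 83.7 TPM in N, 259 and 80.5 TPM in ACT and 157 and 182 TPM in ACT_IL21.

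**Figure D5:**
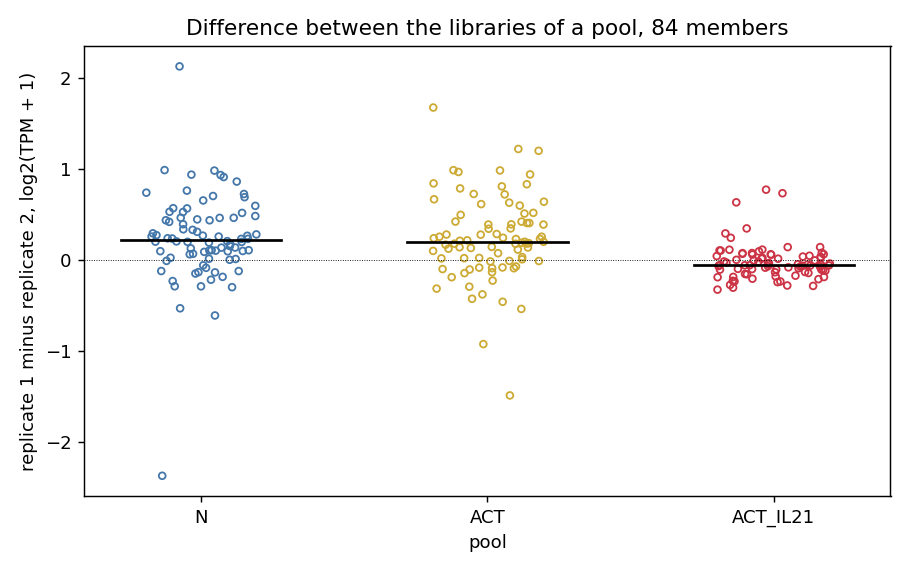
Replicate 1 minus replicate 2 on the log2(TPM + 1) scale for each of the 84 tested ribosomal protein genes, by pool, with the median as a line. Medians are 0.22 in N, 0.20 in ACT and -0.05 in ACT_IL21, where the points are closest to 0.

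Other genes of protein synthesis were compared by lists. Of the elongation factors, 2 of 6 fell in ACT_IL21 against N, beside 1.26% of all genes, with a list median of -0.42. They were Eef1g, by 0.70 on the log2 scale (limma adjusted p = 0.0214), and Eef1b2, by 0.69 (adjusted p = 0.0344). Both are subunits of the complex that recharges Eef1a1. None of the 6 passed in the other comparisons. Of 3 ribosomal subunit genes with other names none passed, and Gnb2l1, the scaffold protein also called Rack1, had a log2 fold change of -0.48 against N (adjusted p = 0.16). Of 10 other TOP messenger RNAs none passed. Their median was -0.07 in ACT_IL21 against N, with 8 of 10 below 0, and 0.03 in ACT against N, with 2 of 10 below 0. Tpt1, the most abundant of them, had a log2 fold change of -0.72 in ACT_IL21 against N (adjusted p = 0.189).

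Ribosome assembly factors lay below N as a list but gave no call. Of 48 genes, 0 were called in any comparison, and the medians were -0.13 in ACT against N, -0.34 in ACT_IL21 against N and -0.22 in ACT_IL21 against ACT. Npm1, a nucleolar chaperone and the most abundant, had a log2 fold change of -0.80 in ACT_IL21 against N (adjusted p = 0.112). Of 8 tested genes of the Myc network only Myc, a transcription factor that drives ribosome production, passed: it fell by 1.41 in ACT_IL21 against N (adjusted p = 0.0297), from 81.7 and 48.7 TPM in N to 24.2 and 22.1 TPM.

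Mitochondrial ribosomal proteins, which translate the few messenger RNAs of mitochondria, had medians near those of all genes. Over 76 genes the median was 0.06 in ACT against N, 0.10 in ACT_IL21 against N and 0.00 between the ICOS-positive pools. Only Mrps21, of the mitochondrial small subunit, passed, and it rose by 0.65 in ACT against N (adjusted p = 0.0464). None of 37 initiation factors, 15 RNA polymerase I genes, 15 genes of mTORC1 and translation control or 8 genes of ribosome quality control passed in any comparison. Their medians of ACT_IL21 against N were -0.09, 0.09, 0.08 and -0.01, and their most abundant genes Eif4a2, Polr1d, Pdcd4 and Tcf25 had log2 fold changes of -0.25, 0.17, 0.05 and -0.03.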

How the data were processed

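The deposited values are gene-level TPM in 1 column per library, made by the authors with Trimmomatic, Bowtie and RSEM on build GRCm38, per the submitters' processing notes, which name no versions. Poly-A RNA was extracted with RNeasy kits and amplified with the NuGEN Ovation kit, per the labels' protocols. Which annotation and strand setting were used is not stated in these sources. TPM keeps no read depth, so no counting interval or floor is given, and a fixed total lowers other genes when abundant ones rise.

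The 38355 entries were summed into 38216 symbols. A gene entered the test when 2 or more of the 6 libraries reached 1 TPM, which 13311 did. A single linear model on log2(TPM + 1) covered the 3 pools (limma 3.58.1, R 4.3.3), two-sided, with an intensity trend, 3 residual and 4.841 prior degrees of freedom. Benjamini-Hochberg adjustment was made over all genes tested within each comparison, at a threshold of 0.05, and the fit was tested on simulated data. Fold changes on this scale understate low genes. Copies of a gene were taken by -ps names and by blastn 2.17.0 (at least 90% identity over 80% of the copy) against GENCODE M21 transcripts.

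The members, gene lists and naming rule were chosen with earlier results of these data known. Named were all genes past the threshold, the 5 most abundant, those under 1 TPM, the 3 highest and 3 lowest folds per comparison among genes of at least 5 TPM, the P stalk, Rpsa, Rps6, Rps27a, paralogue pairs, and the 3 of at least 5 TPM with the widest replicate gaps. Of other lists, genes past the threshold or the most abundant one were named. A gene that this rule names is counted but not reported here. Genes shown for their sequence, copies and chromosome were chosen after their values were seen.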

Additional observations from a re-analysis of the deposited data

Results flagged for a closer look

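Rps12l1 moved up in ACT and down in ACT_IL21 relative to N, and the difference between these pools passed the test: its log2 fold change of ACT_IL21 against ACT was -1.23 (SE 0.17, limma adjusted p = 0.0134), with both ACT_IL21 libraries below both N libraries and both ACT libraries above them. Its adjusted p was 0.108 and 0.114 without ACT_IL21 replicate 1 or 2, and 0.0211 to 0.041 without any other single library. Over all alternatives it ranged from 0.0104 to 0.114. The annotated locus is a processed pseudogene whose 399 coding bases are those of Rps12. How the reads were divided between Rps12l1, Rps12-ps3 and Rps12 was not tested.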

How the results depend on the processing

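Over all 13311 tested genes, 168 were lower in ACT_IL21 than in N as reported, 217 with median scaling and 182 with the replicate block. The number of ribosomal protein genes lower, 9 as reported, was 22 with median scaling and 12 with the replicate block. It was 0 with no filter on low values, without the intensity trend or scaled to the ribosomal sum, which gave 2 higher. Leaving out 1 library gave 0 to 11. The single higher gene in ACT against N became 0 with a pseudocount of 0.1, no filter, median scaling, scaling without ribosomal protein genes, the 2 pools alone, no trend or protein-coding genes only, 2 when scaled to the ribosomal sum, and 0 to 1 with 1 library left out; lower genes then numbered 0 to 1. The single lower gene in ACT_IL21 against ACT became 0 with no filter, scaling to the ribosomal sum, the 2 pools alone, no trend or protein-coding genes only, and 0 to 1 with 1 library left out.

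Over all genes 743, 677 and 259 were called in ACT against N, ACT_IL21 against N and ACT_IL21 against ACT. These became 353, 333 and 48 with no filter, 417 and 92 (first and last) with the 2 pools alone, and 2223 (ACT_IL21 against N) when scaled to the ribosomal sum. Leaving out 1 library gave 260 to 678, 169 to 903 and 32 to 202. Calls in ACT_IL21 against N were 75.2% higher genes, 64% with median scaling and 95.6% scaled to the ribosomal sum. Adding -ps names raised the summed TPM to 149442 in N, 122071 in ACT and 106557 in ACT_IL21.

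Replicate numbers were not used as pairs in the main test. Over all genes, deviations from the pool means correlated at 0.21 between N and ACT, -0.004 between N and ACT_IL21 and 0.001 between ACT and ACT_IL21. Over the 84 ribosomal protein genes these were 0.625, -0.404 and -0.317, so N and ACT shared part of their replicate difference in these genes. The replicate block changed no other ribosomal call. No single ribosomal call reversed under these alternatives. Depth is unknown, and 2 libraries per pool limit the precision.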
